A study of Mus musculus with 8 samples.

Results

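The MHC class II genes are described here in ileal tumours of mice, from the arrays of 8 tumours. The members are 10 genes, H2-Aa, H2-Ab1, H2-Eb1, H2-DMa, H2-DMb1, H2-DMb2, H2-Oa, H2-Ob, Cd74 and Ciita, and every probe whose gene symbol in the deposited table is 1 of these names was used. They had 13 probes, out of 25697 probes for 17914 genes on the array. H2-Ab1 had 3 probes, Cd74 had 2, and the other 8 genes had 1 each. The deposited table places the H2 genes on chromosome 17, Cd74 on chromosome 18 and Ciita on chromosome 16.

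All 8 tumours came from mice of the APCmin/+ genotype, which carry a mutant allele of the tumour suppressor Apc and form intestinal tumours. The control group (4 arrays, numbered 1 to 4) also carried a VP16 transgene, and the other group (4 arrays, numbered 5 to 8) carried VP16LXRa, the nuclear receptor LXRa joined to the VP16 activation domain. Mice of both groups were of the strain given as C57BL/6J-FVBN Mixed Strain and were 8 months old. The promoter that drives the transgenes, the sex of the mice and the number of founder lines are not given in the labels. The labels also do not say whether the 8 arrays are 8 animals, so the p-values below measure the spread between these samples, and the 4 arrays per group limit the precision. The question that the labels set is how the tumours of the 2 genotypes differ.

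MHC class II molecules are pairs of an alpha and a beta chain that show peptides from the endosomal pathway to CD4 T cells. B cells, dendritic cells and macrophages carry them at high levels, and intestinal epithelial cells can be induced to carry them by interferon gamma. The invariant chain Cd74 guides the new molecules to the endosome, H2-DM loads them with peptide, H2-O modulates H2-DM mainly in B cells, and Ciita is the coactivator that switches the genes on together. Ciita does not bind DNA itself but acts through a complex of RFX, CREB-family and NF-Y proteins on conserved X and Y boxes in the promoters. In a whole tumour, fewer cells of a type and less RNA per cell cannot be told apart.

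Promoter sequences are shown because Ciita acts through these X and Y boxes and because most of the members varied together over the arrays. RefSeq promoters of 300 bases (GRCm38.p6) were at hand for 7 of the 10 members, and the windows below are 64 bases each, read 5′ to 3′ on the strand of the gene. Capitals mark matches to an X-type pattern, AGNNACNNATG, and to the Y-type pattern TGATTGG, both chosen after the promoters had been seen. The first 3 windows hold the X-type pattern followed by the Y-type pattern.
H2-Eb1: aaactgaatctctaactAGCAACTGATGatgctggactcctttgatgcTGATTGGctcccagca
H2-DMb1: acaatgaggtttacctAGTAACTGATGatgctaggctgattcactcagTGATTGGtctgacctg
H2-Ob: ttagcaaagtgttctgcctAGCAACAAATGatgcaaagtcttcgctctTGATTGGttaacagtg
H2-Aa: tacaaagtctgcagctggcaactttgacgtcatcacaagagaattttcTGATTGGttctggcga
H2-DMb2: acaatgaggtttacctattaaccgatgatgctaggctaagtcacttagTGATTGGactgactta
H2-Oa: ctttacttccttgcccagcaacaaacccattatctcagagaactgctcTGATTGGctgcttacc

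The windows lie at chr17:34305758-34305821 for H2-Eb1, chr17:34153080-34153143 for H2-DMb1 and chr17:34238798-34238861 for H2-Ob, all on the plus strand. The window of H2-Aa lies at chr17:34287858-34287921 on the minus strand, that of H2-DMb2 at chr17:34145109-34145172 and that of H2-Oa at chr17:34092286-34092349, both on the plus strand. Searched on both strands, the X-type pattern was in the promoters of 4 of the 7 genes, against 3.09% of 32851 RefSeq promoters, and the Y-type pattern was in 6 of the 7, against 7.82%. The ordered pair, on the gene's strand and separated by 0 to 30 bases, was in 3 of the 7 genes, which have 8 promoters. As the patterns were chosen after these promoters had been seen, the shares are a description and no test. Among all promoters the ordered pair was in 0.0183%, which is 6 promoters. Besides H2-Eb1, H2-DMb1 and H2-Ob, those belong to the class II beta gene H2-Eb2, to Osbp and to Gm32585. The gap between the patterns was 20 bases in H2-Eb1, 21 in H2-DMb1 and 18 in H2-Ob, while the X-type match of H2-Oa lay 85 bases upstream of its Y-type match and outside the window shown. The windows of H2-DMb1 and H2-DMb2 were identical at 56 of 64 bases, and within the X-type pattern they differed by G2T and T7C (H2-DMb1 first, positions counted from 1 at the 5′ end of the pattern). No match was found in the H2-DMa promoters, and no X-type match in those of H2-Aa and H2-DMb2. These misses, and the distant X-type match of H2-Oa, concern only these letters and do not show that an X box is absent.

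Between 49.0% and 54.7% of probes were detected on each array, and the median scanner signal lay between 134 and 165 intensity units. The array VP16LXRa 5 differed from the rest, with a median r of 0.869 to the remaining arrays where each of the others had 0.910 to 0.942. On it, 123 of the probes detected on each of the other 7 arrays read at least 16-fold below the median of those arrays, against 0 to 8 probes on any other array. Exactly 1 of these 123 is a class II probe, the H2-Ab1 probe ILMN_2631423, so its values are given with and without this array. The tissue label was checked against 9 epithelial marker genes on the array, all of which were detected on at least 4 arrays, with Krt8 and Krt20 having the highest levels. All 8 arrays of the 2 groups were fitted together with limma after normexp background correction, quantile normalisation and log2, and a difference is VP16LXRa minus control on the log2 scale.

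No class II gene passed the test between the genotypes. Of the 13 member probes, 11 were detected on at least 4 arrays and were tested, covering 8 genes, and 0 of the 11 had an adjusted p under 0.05 in limma, against 0% of all 13426 tested probes. At an unadjusted p under 0.05, 0 of the 11 passed, against 2.53% of all probes. Of the 8 tested genes, 6 had a lower mean in VP16LXRa tumours and 2 a higher mean, with a median difference of -0.41. Of all 10054 tested genes 46.9% were lower, with a median of 0.02. The 2 higher genes were near 0, H2-DMb1 at 0.04 and H2-Ab1 at 0.00 by its brightest probe. By its other probes H2-Ab1 was at -0.36 and -1.76, the last being -0.03 without VP16LXRa 5. The 2 groups overlapped for each of the 13 member probes, and 1.74% of all tested probes had groups that did not overlap. Leaving out control 2 gave a class II median of -0.18, leaving out control 3 gave -0.22 and leaving out control 4 gave -0.72.

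**Figure D1:**
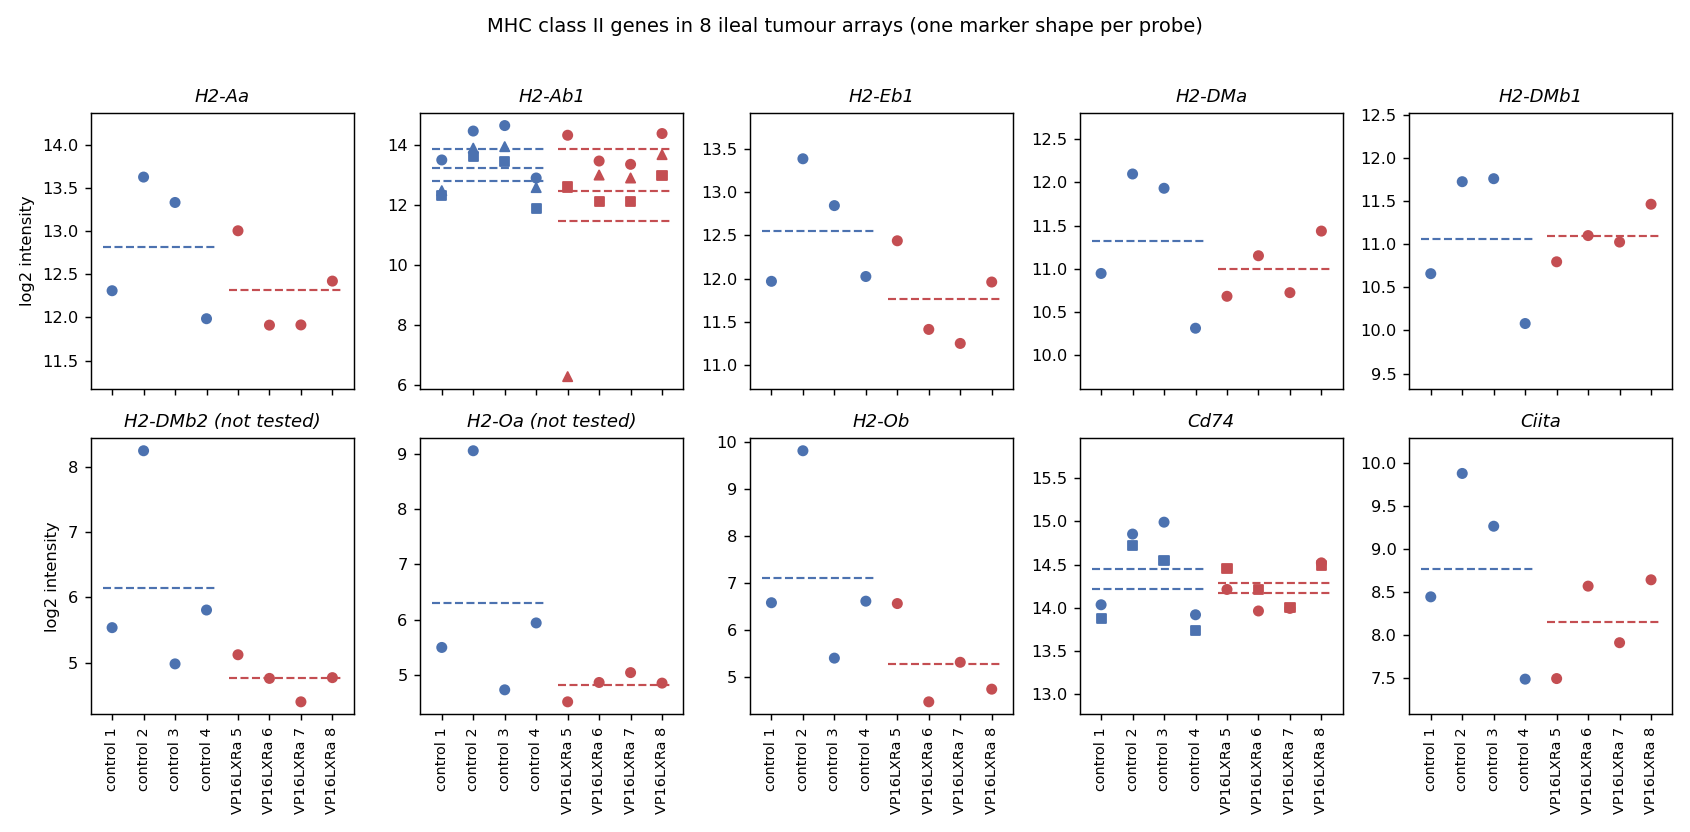
Log2 intensity of each member gene (y axis, a scale of its own in each panel) on each of the 8 arrays (x axis), with controls in blue, VP16LXRa in red and a marker shape for each probe. Dashed lines are group means (n = 4); control 2 and control 3 are the highest arrays in the panels of H2-Aa, H2-Ab1, H2-Eb1, H2-DMa, H2-DMb1, Cd74 and Ciita, and control 2 alone in those of H2-DMb2, H2-Oa and H2-Ob.

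The classical chains that hold the peptide are encoded by H2-Aa (the A alpha chain), H2-Ab1 (the A beta chain) and H2-Eb1 (the E beta chain). The log2 intensity of H2-Aa was 12.31, 13.63, 13.33 and 11.99 in controls 1 to 4, and 13.004, 11.91, 11.91 and 12.42 in VP16LXRa 5 to 8. Control 2 and control 3 were the highest, VP16LXRa 5 came next, and the groups overlapped. The means were 12.81 ± 0.79 in controls and 12.31 ± 0.52 in VP16LXRa tumours (SD, n = 4 each), a difference of -0.50 with an SE of 0.42 and an adjusted p of 0.998 in limma. It was -0.23 without control 2 and -0.78 without control 4.

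The log2 intensity of H2-Eb1 was 11.97, 13.39, 12.85 and 12.02 in the controls and 12.44, 11.41, 11.25 and 11.96 in the VP16LXRa tumours. Here 3 of the 4 VP16LXRa arrays were below every control, and VP16LXRa 5 lay within the control range. The means were 12.56 ± 0.68 and 11.76 ± 0.54 (SD, n = 4 each), and the difference of -0.79 had a 95% confidence interval from -1.68 to 0.09 and an adjusted p of 0.998 in limma. Without VP16LXRa 5 the difference was -1.02, and without control 2 it was -0.51.

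H2-Ab1 was read by 3 probes. The log2 intensity of probe ILMN_1226525 was 13.51, 14.47, 14.66 and 12.91 in the controls and 14.33, 13.47, 13.36 and 14.39 in the VP16LXRa tumours. That of probe ILMN_2913716 was 12.31, 13.61, 13.45 and 11.89 in the controls and 12.61, 12.12, 12.11 and 12.98 in the VP16LXRa tumours. Both placed control 2 and control 3 highest and control 4 lowest, and in both the groups overlapped. The difference was 0.00 (SE 0.44) by ILMN_1226525 and -0.36 (SE 0.42) by ILMN_2913716, with adjusted p of 0.999 and 0.998 in limma. The first was between -0.32 and 0.25 with 1 array left out, and the other was -0.10 without control 2 and -0.67 without control 4.

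The probe ILMN_2631423 of H2-Ab1 differed from the others on a single array. Its log2 intensity was 12.48, 13.90, 13.95 and 12.59 in the controls and 6.27, 13.004, 12.91 and 13.69 in the VP16LXRa tumours. On the linear scale before any correction its signal was 158 in VP16LXRa 5, against 5259 to 20967 on the other 7 arrays, and its detection p there was still 0. The other probes of the gene read 17242 and 5141 on that array, both within their own range over the other arrays. The difference of -1.76 (SE 1.45, adjusted p 0.998 in limma) became -0.03 when VP16LXRa 5 was left out.

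Apart from that value the probes of a gene gave a similar pattern over the arrays, but not the same difference between the groups. The difference was 0.00 by ILMN_1226525 and -0.36 by ILMN_2913716, and it was -0.28 and 0.07 by the Cd74 probes. ILMN_1226525 and ILMN_2913716 correlated at r = 0.92 over the 8 arrays, while ILMN_2631423 correlated with them at -0.06 and 0.23 over 8 arrays and at 0.94 and 0.93 over the 7 arrays without VP16LXRa 5. The gap between ILMN_1226525 and ILMN_2631423, each taken from its own mean over the 7 other arrays, was 7.45 in VP16LXRa 5 and at most 0.42 elsewhere. The gap between ILMN_1226525 and ILMN_2913716 was 0.54 in VP16LXRa 5 and at most 0.32 elsewhere. These correlations describe 8 arrays that share their depth and normalisation between probes. Over all 2487 genes with several probes, the log2 spread between the probes of 1 gene had a 90th percentile of 2.40 on VP16LXRa 5 and of 0.60 to 0.82 on the other arrays.

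**Figure D2:**
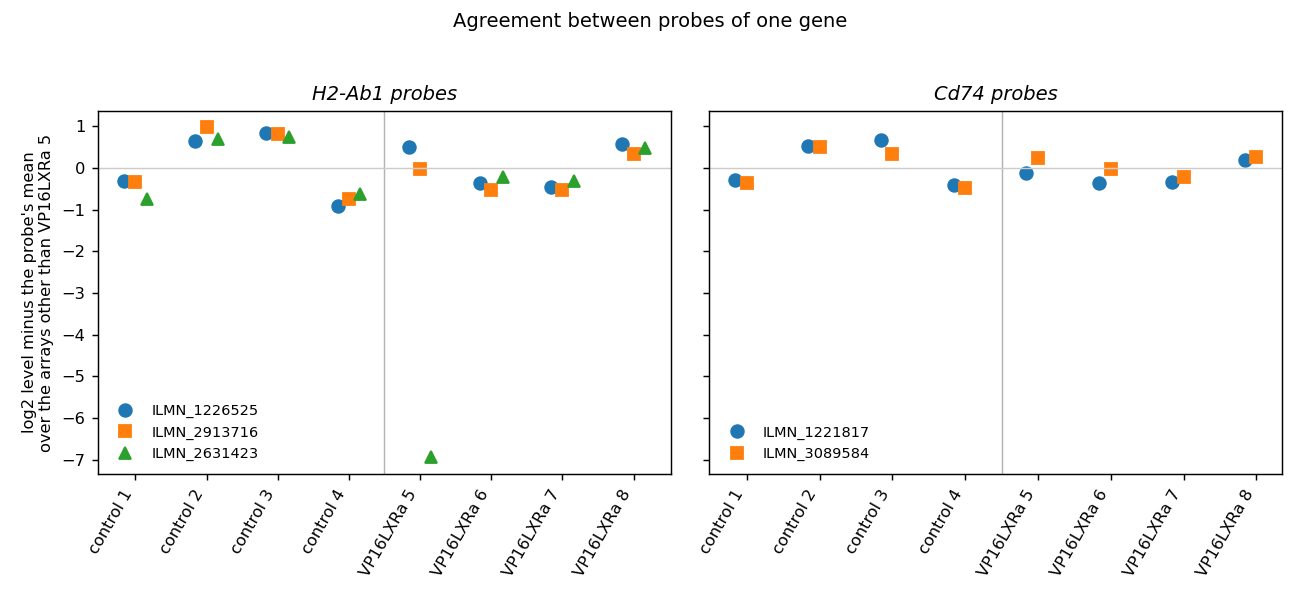
Log2 intensity of each H2-Ab1 probe (left) and each Cd74 probe (right) on the 8 arrays (x axis), as the deviation from the probe's mean over the 7 arrays other than VP16LXRa 5 (y axis, log2 units). The H2-Ab1 probe ILMN_2631423 lies far below the other probes in VP16LXRa 5 and beside them on the other 7 arrays, and the Cd74 probes differ by at most 0.35.

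Cd74, the invariant chain, was read by 2 probes. The log2 intensity of ILMN_1221817 was 14.03, 14.85, 14.99 and 13.92 in the controls and 14.21, 13.96, 13.99 and 14.52 in the VP16LXRa tumours. That of ILMN_3089584 was 13.87, 14.73, 14.55 and 13.74 in the controls and 14.46, 14.21, 14.001 and 14.49 in the VP16LXRa tumours. Both probes gave control 2 and control 3 the highest values and control 4 the lowest. The VP16LXRa tumours lay inside the control range in both, and the range over all arrays was at most 2.10-fold, the narrowest of the members. The difference was -0.28 (SE 0.30) by the first probe and 0.07 (SE 0.28) by the other, each with an adjusted p of 0.998 in limma, and the probes correlated at r = 0.84. The first was -0.10 without control 3 and -0.45 without control 4, and the other lay between -0.09 and 0.24 with 1 array left out.

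The peptide loading factor H2-DM is a pair of H2-DMa with a beta chain from H2-DMb1 or H2-DMb2. The log2 intensity of H2-DMa was 10.94, 12.10, 11.93 and 10.31 in the controls and 10.68, 11.15, 10.72 and 11.44 in the VP16LXRa tumours. That of H2-DMb1 was 10.66, 11.72, 11.76 and 10.08 in the controls and 10.79, 11.10, 11.02 and 11.46 in the VP16LXRa tumours. For both genes the VP16LXRa tumours lay wholly within the range of the controls, between control 4 and control 3. The difference was -0.32 with a 95% interval from -1.25 to 0.60 for H2-DMa and 0.04 with an interval from -0.84 to 0.92 for H2-DMb1, each with an adjusted p of 0.998 in limma. Leaving out control 2 gave -0.06 for H2-DMa and leaving out control 4 gave -0.67, and H2-DMb1 lay between -0.29 and 0.27 with 1 array left out.

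H2-DMb2 did not follow H2-DMb1. Its log2 intensity was 5.54, 8.25, 4.98 and 5.81 in the controls and 5.12, 4.76, 4.40 and 4.77 in the VP16LXRa tumours. It was detected in controls 1, 2 and 4 and on no VP16LXRa array, so it was not tested, and control 2 was 5.43-fold above the next highest array. Its mean in controls was 2.07-fold above a floor set for the VP16LXRa tumours, and 1.27-fold above it without control 2. This bound sets the mean of the controls against, on each VP16LXRa array, the dimmest detected probe, or this probe where it read higher.

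H2-Oa and H2-Ob encode the chains of H2-O, which modulates H2-DM. The log2 intensity of H2-Oa was 5.50, 9.05, 4.74 and 5.94 in the controls and 4.52, 4.87, 5.05 and 4.86 in the VP16LXRa tumours. H2-Oa too was detected in controls 1, 2 and 4 alone. Its mean in controls was 2.32-fold above a floor set in the same way, or 1.23-fold without control 2, again with control 3 as read. That of H2-Ob was 6.58, 9.81, 5.41 and 6.62 in the controls and 6.57, 4.48, 5.32 and 4.75 in the VP16LXRa tumours, with detection on all 4 control arrays and on VP16LXRa 5 and 7. Control 2 was 8.63-fold above the next highest array for H2-Oa and 9.17-fold for H2-Ob, and control 3, high for the classical chains, was the lowest control for both. The means of H2-Ob were 7.11 ± 1.89 and 5.28 ± 0.93 (SD, n = 4 each), and the difference of -1.83 (SE 0.87) had an adjusted p of 0.998 in limma. It was -0.93 without control 2, -0.92 with no background correction and -2.35 with array weights, and the probe was not detected on 2 of the 4 VP16LXRa arrays, so its size is uncertain.

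Ciita, the transactivator, had a log2 intensity of 8.44, 9.87, 9.26 and 7.49 in the controls and 7.50, 8.57, 7.91 and 8.64 in the VP16LXRa tumours. Control 2 and control 3 were again the highest, and control 4 and VP16LXRa 5 were the lowest. For H2-Aa, H2-Eb1 and 2 of the 3 H2-Ab1 probes, VP16LXRa 5 was instead among the 4 highest arrays. This contrast is uncertain, as Ciita was read by a single probe and probes of the same gene spread most on VP16LXRa 5. The means were 8.77 ± 1.03 and 8.16 ± 0.55 (SD, n = 4 each), with a difference of -0.61 (95% interval -1.75 to 0.52, adjusted p 0.998 in limma). It was -0.24 without control 2, -0.39 without VP16LXRa 5 and -1.05 without control 4.

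**Figure D3:**
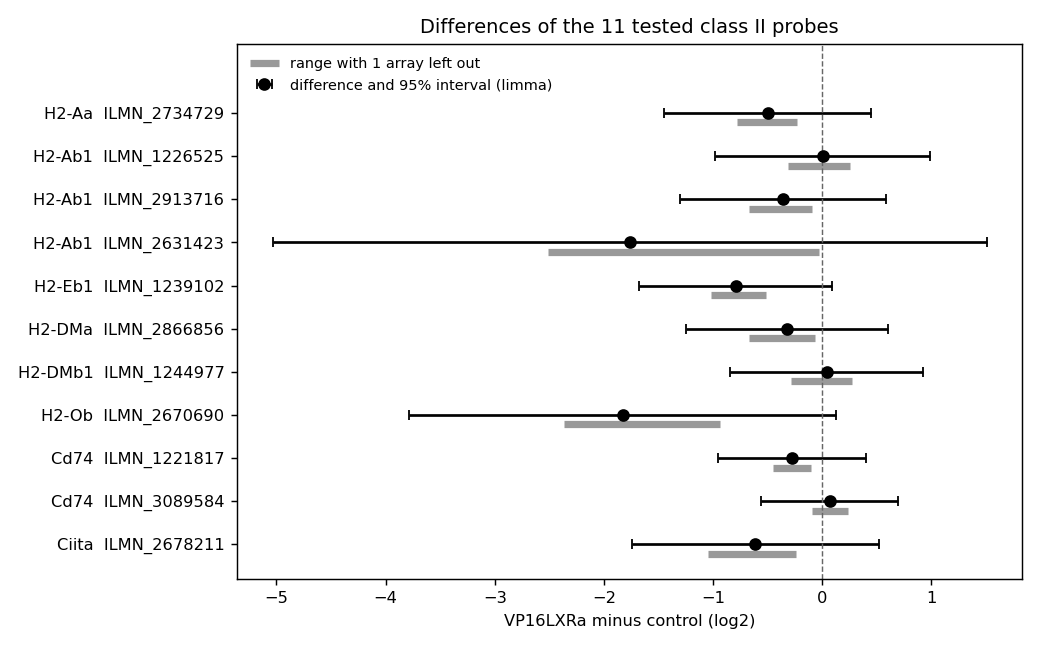
Log2 difference between VP16LXRa and control tumours for each tested member probe (x axis, VP16LXRa minus control), with thin black bars for the 95% confidence interval from limma and thick grey bars for the range of the difference when 1 array is left out. Each interval crosses 0, and that of the H2-Ab1 probe ILMN_2631423 is the widest, from -5.03 to 1.51.

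Class II levels differed between the genotypes by less than they varied among the controls. The mean deviation of the 8 tested genes from their own 8-array means was -0.17, 1.26, 0.55 and -0.56 in controls 1 to 4 and -0.04, -0.47, -0.54 and -0.03 in VP16LXRa 5 to 8. The group means were 0.27 ± 0.80 in controls and -0.27 ± 0.27 in VP16LXRa tumours (SD, n = 4 each). H2-Ob, near background on several arrays, deviated by 3.62 in control 2. Without H2-Ob the mean deviation was -0.25, 0.92, 0.74 and -0.70 in controls 1 to 4. It was then -0.09, -0.29, -0.49 and 0.17 in VP16LXRa 5 to 8. The correlations with lists and with genes outside the members, given below, use the value with H2-Ob. Control 2 was above the mean for 8 of 8 genes and control 3 for 7 of 8, the exception being H2-Ob, and all VP16LXRa tumours lay between control 4 and control 3. For each of the 10 probes of the 7 genes H2-Aa, H2-Ab1, H2-Eb1, H2-DMa, H2-DMb1, Cd74 and Ciita, control 2 and control 3 were the 2 highest arrays. The controls had the larger SD for 12 of the 13 member probes, against 52.4% of all tested probes, the exception being ILMN_2631423, and this was not tested. The median pooled SD within groups was 0.66 for the 8 genes, against 0.43 for all tested genes.

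The 7 genes moved together and H2-Ob apart from them, a grouping made after the values were seen. Over the 8 arrays, the 21 pairs among the 7 genes had Pearson correlations from 0.48 to 0.97 with a median of 0.81, and from 0.24 to 0.95 without control 2. The 7 pairs with H2-Ob had correlations from 0.08 to 0.74 with a median of 0.34, and a median of -0.26 without control 2. Each of these is a description over 8 arrays that share normalisation, with no test.

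**Figure D4:**
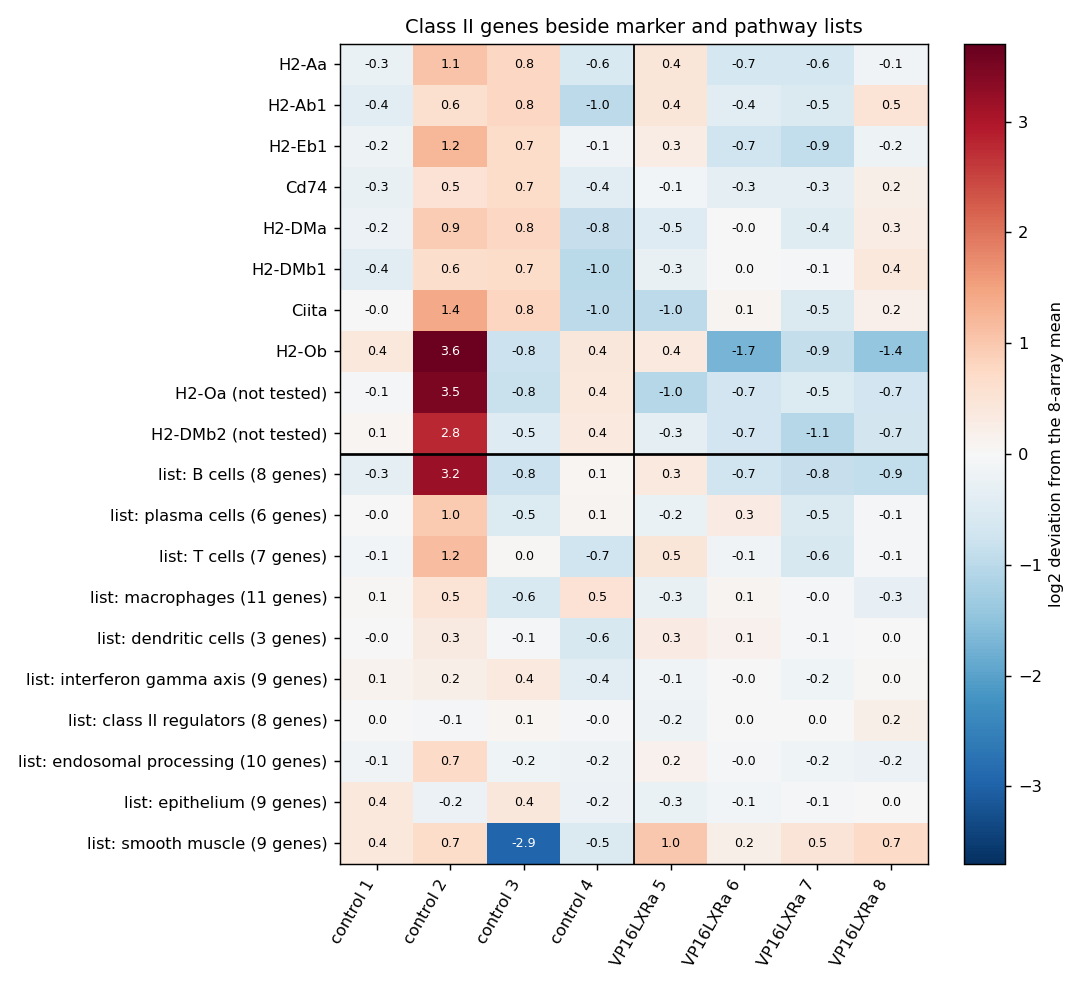
Heat map of log2 levels, each as its distance from the mean over 8 arrays, on each array (columns) for each member gene (upper rows) and, below the thick line, the mean over the tested genes of each marker or pathway list (colour and printed numbers in log2 units). Control 2 is high for each member, control 3 is high for the members other than H2-DMb2, H2-Oa and H2-Ob, and the B cell list is high in control 2, at 3.20.

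B cell markers stood out on the same array as H2-O and H2-DMb2. Of 14 listed B cell genes 12 were on the array and 8 were tested, and their mean deviation was 3.20 in control 2, between -0.80 and 0.08 in the other controls and between -0.91 and 0.35 in VP16LXRa tumours. Cd79b, a chain of the B cell receptor, had a log2 intensity of 11.54 in control 2 and 5.97 to 8.46 elsewhere. Ms4a1, which encodes a B cell surface protein, was detected in control 2 and VP16LXRa 5, and the probe of Pax5 on no array. All 8 tested B cell genes were lower on average in VP16LXRa tumours, with a median of -0.96, where 46.9% of all tested genes were lower. Of these 8 genes, 0 had an adjusted or unadjusted p under 0.05 in limma, against 0% and 2.53% of all tested probes. Without control 2, 6 of the 8 were lower and the median was -0.09, with Blk and Cd22 on the other side. The part of B cells in the class II values was not tested.

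Markers of other cell types followed the class II genes in part: over the 8 arrays the mean deviation of a list correlated with that of the class II genes at r = 0.87 for T cells, 0.73 for B cells, 0.53 for dendritic cells and 0.48 for plasma cells. It was 0.01 for macrophages, 0.08 for epithelium and -0.17 for smooth muscle, all as a description. Control 2 was the highest array for the class II genes and for the T cell, B cell, dendritic cell and plasma cell lists. The correlations of those lists lean on it, and none is given without it. In control 3, where the class II genes deviated by 0.55, those lists deviated by 0.04, -0.80, -0.08 and -0.51 in the same order. The 7 tested T cell genes of 10 listed had a mean deviation of 1.15 in control 2, from -0.75 to 0.04 in the other controls and from -0.59 to 0.45 in VP16LXRa tumours, and Cd8a was detected on no array. The 11 macrophage genes deviated by 0.50 in control 2, -0.57 in control 3 and 0.52 in control 4, and by -0.29 to 0.09 in VP16LXRa tumours. Only 3 of 10 dendritic cell genes were tested, with deviations from -0.61 to 0.34 in controls and from -0.08 to 0.30 in VP16LXRa tumours, and the probes of Itgax, Flt3, Zbtb46, Xcr1 and Cd209a were detected on no array. The 6 tested plasma cell genes of 8 listed deviated by 0.96 in control 2, by -0.51 to 0.12 in the other controls and by -0.54 to 0.31 in VP16LXRa tumours. In control 3, where the classical chains were high, the 9 smooth muscle genes deviated by -2.93, against -0.53 to 0.67 in the other controls and 0.21 to 1.01 in VP16LXRa tumours. All 9 smooth muscle genes had a higher mean in VP16LXRa tumours, where 46.9% of all tested genes were lower. Their median was 1.15, and 0.49 without control 3. Of these 9 genes, 0 had an adjusted or unadjusted p under 0.05 in limma, against 0% and 2.53% of all tested probes. The 9 epithelial genes deviated by -0.21 to 0.41 in controls and by -0.25 to 0.03 in VP16LXRa tumours. The part of these cells in the class II values was not tested.

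The following lists hold genes that act with the class II genes. In each, 0 genes had an adjusted or unadjusted p under 0.05 in limma, against 0% and 2.53% of all tested probes. With lists this short, such a count says little about these genes. Of 11 listed regulators, which hold the RFX, NF-Y and CREB proteins and the acetyltransferases that work with Ciita, 8 were tested, 4 lower and 4 higher, with a median of 0.03. The NF-Y subunit gene Nfyc differed by 0.18 (SE 0.19) and the acetyltransferase Ep300 by -0.01 (SE 0.18), while the probe of the RFX subunit gene Rfx5 was detected on no array. Over the 8 arrays the mean deviation of the regulators stayed between -0.20 and 0.21 and correlated with that of the class II genes at r = -0.10, as a description.

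The interferon gamma axis, which induces Ciita in many cells, correlated with the class II genes at r = 0.73 over the 8 arrays. The correlation was 0.76 for the endosomal processing list, 0.61 for the costimulation list and 0.90 for the other class II loci, which are 2 tested genes. Control 2 was the highest array for the endosomal processing, costimulation and other class II loci lists. For the interferon gamma axis it was control 3. The correlations of endosomal processing and costimulation lean on control 2, and no correlation without it is given. In control 3, the class II genes deviated by 0.55. There endosomal processing deviated by -0.15, costimulation by -0.41 and the other loci by 0.39. The endosomal processing list deviated by 0.71 in control 2 and by -0.22 to 0.16 on the other arrays. Of 10 listed genes of the interferon gamma axis 9 were tested, 6 lower and 3 higher, with a median of -0.13. Their mean deviation was 0.14, 0.21, 0.37 and -0.42 in controls 1 to 4 and -0.16 to 0.03 in VP16LXRa tumours. The transcription factor gene Irf1 differed by -0.13 (SE 0.24) and Irf2 by 0.09 (SE 0.20). Ifng itself, the gene of the cytokine, was detected on 2 arrays by each of its 2 probes and was not tested.

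Of 11 genes of endosomal processing 10 were tested, 5 lower and 5 higher, with a median of -0.01. The protease gene Ctsb differed by -0.09 (SE 0.20) and the protease inhibitor gene Cst3 by 0.11 (SE 0.24). Of 6 genes for recognition and costimulation 3 were tested and all 3 were lower, with a median of -0.46, among them Cd40 at -0.52 (SE 0.58) and Cd86 at -0.46 (SE 0.42). The mean deviation of these 3 was 1.40 in control 2, -0.41 to 0.03 in the other controls and -0.80 to 0.70 in VP16LXRa tumours. Without control 2, Cd40 and Lag3 were higher in VP16LXRa tumours and the median was 0.03. Cd4, the coreceptor that binds class II, was detected in control 2 and VP16LXRa 5 alone.

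Of 3 other loci of the class II region 2 were tested, and they differed from each other. H2-Eb2, a further E beta gene listed in the deposited table as A130038H09Rik, had a log2 intensity of 7.97 in control 2 and 5.15 to 6.16 on the other 7 arrays, and differed by -0.70 (SE 0.55). Btnl2, a butyrophilin-like gene beside the class II genes, read 7.88, 9.35, 9.49 and 6.28 in the controls and 8.63, 8.60, 8.50 and 9.48 in the VP16LXRa tumours, and differed by 0.55 (SE 0.66). For Btnl2 the 2 highest arrays were control 3 and VP16LXRa 8 and the lowest was control 4, and for H2-Eb2 control 2 stood above the rest. Both had an adjusted p of 0.998 in limma.

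The genes whose level followed the mean class II deviation most closely were ranked by Pearson correlation over the 8 arrays among 10046 genes outside the members. The first 10 had correlations from 0.92 to 0.97, and from 0.72 to 0.93 without control 2. They were Ctns, the lysosomal cystine transporter, at 0.97, LOC100044538 at 0.96, Tnfaip8l2, a negative regulator of immune signalling, at 0.96, and Cst7, a protease inhibitor of leukocytes, at 0.93. The others were Oas1d, Fam78a, Kynu, Pola2, Ppp1r35 and Icos, the last a costimulatory receptor of T cells. Ctns had a log2 intensity of 8.72, 9.26, 9.04 and 8.69 in the controls and 8.88, 8.70, 8.72 and 8.78 in the VP16LXRa tumours, so the same 2 controls were highest over a much narrower range. These correlations carry no test, since the genes were picked for them.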

How the data were processed

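Total RNA of 8 ileal tumours was hybridised to Illumina BeadChips as biotinylated cRNA, per the labels' protocols. The deposited table holds for each of 25697 probes an average bead intensity and, per the file headers, a detection p-value, with no background subtraction or normalisation seen in the values. A second deposited table holds the authors' processed intensities and was used as an alternative, floored at 16. GenomeStudio is named in the submitters' processing notes, with no version. Neither the chip type nor the genome build is given in the labels or headers. Coordinates are therefore printed only for the promoter windows, which are those of RefSeq (GRCm38.p6), and not for genes or probes.

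Background was corrected with limma 3.58.1 (R 4.3.3, statmod 1.5.0) by normexp on the detection p-values with an offset of 16, then quantile normalised and taken to log2. A probe was tested where its detection p was below 0.05 on 4 or more of the 8 arrays (13426 probes, 10054 genes). The two-sided test was lmFit followed by eBayes, adjusted over all tested probes by Benjamini-Hochberg and called at 0.05. Steps were tested on simulated data. Where a gene had several tested probes, the brightest on average stood for it. The mean deviation of a list on an array is the mean over its tested genes of log2 level minus 8-array mean. Symbols matched RefSeq directly for 20733 probes, through a synonym for 3903 and not for 1061, and 36 symbols turned into dates were restored from the probe definitions.

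The members and lists were chosen with earlier results of these data known. Of each pathway list the genes past the threshold, otherwise the 2 with the highest mean, were named, as were the 10 genes most like the class II pattern. Cd79b, Ms4a1, Blk, Cd22, Lag3, Pax5, Krt8, Krt20, Rfx5, Ifng, Cd4, Cd8a and the undetected dendritic cell genes were named after their values were seen. Alternatives were the background correction, offset, normalisation, source of values, filters, array weights, the probe that stands for a gene, and leaving out each array.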

Additional observations from a re-analysis of the deposited data

Results flagged for a closer look

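Among 28 sets of 4 values, each member probe and the class II mean deviation in each group, 1 held a value far from the others, where chance gives about 1.4. The H2-Ab1 probe ILMN_2631423 read 6.27 in VP16LXRa 5, against 12.91 to 13.69 in the other 3 VP16LXRa tumours. The gap to the nearest array was 0.895 of the range of the group, above Dixon's 95% critical value for 4 values. This array also held 122 other probes at least 16-fold below the median of the other arrays (among probes detected on all of those), and by size the H2-Ab1 probe was number 6 of the 123, at 106-fold below. Of the 123 probes, 96 were not detected on it. The cause was not tested.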

How the results depend on the processing

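No paired analysis was possible because the groups share no replicate numbers. Under each of 16 alternatives, 0 class II probes had an adjusted p under 0.05 in limma. The count over all probes, 0 in the fit as reported, was 2 with array weights and 0 to 2 when 1 array was left out, where leaving out VP16LXRa 5 gave 2 and leaving out control 3 or VP16LXRa 8 gave 1 each. The class II median stayed below 0 under each of 18 alternatives, from -0.56 to -0.32 under other settings and from -0.72 to -0.18 with 1 array left out. The number of class II genes with a lower mean was 6 to 8 of 8 with 1 array left out. The difference changed sign for 3 of the 11 tested probes: H2-DMb1 was -0.020 with median scaling and -0.29 to 0.27 with 1 array left out, H2-Ab1 ILMN_1226525 was -0.27 with array weights and -0.32 to 0.25 with 1 array left out, and Cd74 ILMN_3089584 was -0.090 to 0.24 with 1 array left out. The cause was not tested. Median scaling moved the median of all probes by under 0.1. With no filter, H2-DMb2 and H2-Oa each had an adjusted p of 0.997 in limma. H2-Ob has no value when detection on all 8 arrays is required. Signals near background limit what H2-DMb2, H2-Oa and H2-Ob can show. The folds of H2-Oa and H2-DMb2 are set against a floor and are not strict lower limits. The lists were also recomputed with each array left out, an alternative chosen after seeing the data.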

Other observations

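H2-Ea, the E alpha chain, was detected on 2 arrays, with a log2 intensity of 6.21 in VP16LXRa 6 and 6.27 in VP16LXRa 8, and read 4.46 to 4.80 on the other 6 arrays. It was not tested, and the strain of the mice is mixed, per the labels.

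A probe listed as LOC641240, similar to a class II beta chain in the deposited definition, is no member and was picked after its values were seen. Its log2 intensity was 13.03, 14.28, 14.22 and 12.55 in the controls and 14.17, 13.55, 13.72 and 14.27 in the VP16LXRa tumours. The difference was 0.41 (SE 0.41, adjusted p 0.998 in limma), and control 4 was the lowest array.

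March1 and Cd83, a ubiquitin ligase that removes class II molecules from the surface and the protein that opposes it, were picked after their values were seen. March1 had a log2 intensity of 7.27 in control 2 and 4.69 to 5.92 on the other 7 arrays. Cd83 read 9.48 in control 2 and 5.60 to 7.42 elsewhere, and neither had an adjusted p under 0.05 in limma.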
